A study of Mus musculus with 20 samples.

Results

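The genes described here are the replication-dependent histone genes, the H1 linker and the H2A, H2B, H3 and H4 core histone genes of the Hist1, Hist2, Hist3 and Hist4 clusters. They were taken by name from the array, as all probes whose gene name begins with Hist1h, Hist2h, Hist3h or Hist4h. This gave 52 probes for 48 genes, of 36492 genes on the array. A probe was kept when the scanner software rated it clearly brighter than background on 4 or more of the 20 arrays, and the brightest probe stood for its gene. Of the 48 genes 47 passed this filter, of 27161 genes that passed in all. The gene left out, Hist1h1d, was above background on 0 arrays. The 47 comprise 5 H1, 15 H2A, 11 H2B, 8 H3 and 8 H4 genes, of which 34 carry a Hist1 name, 9 a Hist2, 3 a Hist3 and 1 a Hist4 name.

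The name does not hold equally for every member. Hist1h1t, Hist1h2aa and Hist1h2ba encode histones known from the testis. Hist3h2bb-ps and Hist2h3c2-ps carry pseudogene names in the files, although RefSeq now lists the second as the gene H3c15. The probe named Hist1h2al (chr13:51299277-51299336) lies far from the other Hist1 probes on chromosome 13 and matched no current symbol. Of the 47 genes 39 were above background on all 20 arrays.

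The series compared 7 lines of mouse induced pluripotent stem cells (iPSCs, somatic cells reprogrammed to a state like that of the embryo's founder cells) with 3 lines of embryonic stem cells (ESCs). The labels grade the iPSC lines without giving a measure. The poor grade holds 3 lines, KH2_OSKM with Nanog-GFP OSKM#2 and Oct4-GFP OSKM#2. The good grade holds Nanog-GFP SNEL#3 and BC_2 OSKM, and the high grade Oct4-GFP SNEL#1 and Nanog-GFP SNEL#2. The 3 lines Oct4-GFP ESCs, Nanog-GFP ESCs and KH2 ESCs served as controls. Where levels are given by grade, the poor lines follow the order Nanog-GFP, Oct4-GFP and KH2, the good lines BC_2 and Nanog-GFP, the high lines Nanog-GFP and Oct4-GFP, and the ESC lines KH2, Nanog-GFP and Oct4-GFP. SNEL stands for reprogramming with Sall4, Nanog, Esrrb and Lin28 (3 lines) and OSKM for Oct4, Sox2, Klf4 and Myc (4 lines), so that every poor line is an OSKM line and both high lines are SNEL lines. All 10 lines were grown untreated in 2i medium without feeder cells. Each line is 1 line hybridised on 2 Agilent arrays, and nothing in the labels says that these came from separate cultures, so the line was the unit of comparison and its 2 arrays were averaged. A level is the log2 signal of a probe minus the 75th percentile of its array.

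A cell makes these histones while it copies its DNA, and their mRNAs are among the few in animals without a poly(A) tail. They end instead in a short stem-loop that is bound by the protein SLBP, behind which the transcript is cut. Some of these genes are also known to give a longer, polyadenylated RNA that runs on past the stem-loop. In whole-culture RNA, a smaller share of cells in S phase and less histone mRNA per cell cannot be told apart.

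Where a probe lies relative to the stem-loop therefore bears on which of these RNAs it can see. How well RNA without a poly(A) tail is seen also depends on the priming for labelling, which is not known here. The commonest 16 letters of the histone probes whose first and last 6 letters can pair, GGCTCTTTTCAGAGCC, were taken as the stem-loop and looked for, with up to 2 mismatches, in each 60-letter probe. The following windows are shown because they hold that element, in capitals, with up to 5 letters on either side; all coordinates of probes are those of mm9.
Hist1h3a (probe chr13:23853756-23853815): ccaaaGGCTCTTTTCAGAGCCaca
Hist1h3i (probe chr13:21874784-21874843): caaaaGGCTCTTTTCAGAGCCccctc
Hist2h2bb (probe chr3:96074056-96074115): caaaaGGCTCTTTTCAGAGCCacttt
Hist1h3g (probe chr13:23627719-23627778): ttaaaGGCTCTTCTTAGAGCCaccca
Hist2h2aa1 (probe chr3:96049949-96050008): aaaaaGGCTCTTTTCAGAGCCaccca
In Hist1h3g 2 letters of the element differ from the others. The probes of Hist1h3a, Hist1h3i, Hist2h2bb, Hist1h3g and Hist1h2ab reach the stem-loop at their 3′ end. In Hist2h2aa1 it lies near the 5′ end, and 38 letters of the probe lie past it. In all, 30 probes lay before the stem-loop, 5 ended at it and 12 lay mostly past it. Of these 12, the stem-loop was seen in the probe for 2, and the other 10 were placed by their distance of at least 480 bases (700 for H1) from the start of the transcript.

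A second feature of the sequences limits what single genes can show. Paralogous histone genes share nearly the same coding letters, as the H2A probes that cover one window of the coding end show, with capitals at the positions where the 4 do not all share 1 letter.
Hist1h2af (chr13:23626113-23626172): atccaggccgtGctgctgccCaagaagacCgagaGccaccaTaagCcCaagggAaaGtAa
Hist1h2ak (chr13:21845304-21845363): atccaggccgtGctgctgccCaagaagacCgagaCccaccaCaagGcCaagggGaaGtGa
Hist1h2an (chr13:21878695-21878754): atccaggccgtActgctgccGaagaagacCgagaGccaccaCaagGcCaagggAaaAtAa
Hist2h2aa2 (chr3:96049837-96049896): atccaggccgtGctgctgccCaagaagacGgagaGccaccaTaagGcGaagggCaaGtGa
The 4 probes share their letter at all but 10 of 60 positions. Of 1081 pairs of histone probes, 18 had at least 85% of their shared letters in common, over 9 genes: 6 of H2A (these 4 with Hist1h2ag and Hist1h2ah) and 3 of H4 (Hist1h4c, Hist1h4d and Hist1h4j). The signal of such a probe cannot be given to 1 gene, and these members are not independent of each other. Probes were laid over each other with at least 40 letters shared, so alike genes read in different windows could not be found. The other members may therefore share signal as well.

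Between iPSC and ESC lines, histone genes of every type had a lower mean level in iPSC lines in most cases, but by little. Of 47 genes 42 were lower in iPSC lines, with a median difference of −0.23 on the log2 scale, where 57.6% of all genes tested were lower, with a median of −0.04. None passed limma's test with Benjamini-Hochberg adjustment over all genes (lowest adjusted p = 0.265), as 0 of 27161 genes did (percent called 0). At an unadjusted p under 0.05 stood 4 histone genes and 2586 of all genes. Without the 9 genes of nearly alike probes, 33 of 38 were lower, though these 38 may still share signal. Among the 39 genes above background on all arrays 37 were lower. The lines of 1 gene did not overlap between the groups and were lower in iPSC lines (3.55% of all genes).

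By type, all 11 H2B genes were lower in iPSC lines, with a median difference of −0.33, and all 8 H3 genes, with −0.30. Among them, Hist3h2ba (H2B, −0.03) and Hist2h3c2-ps (H3, −0.04) had small differences that changed sign under some settings. Of the H1 genes 4 of 5 were lower (median −0.29), of the H4 genes 7 of 8 (−0.19) and of the H2A genes 12 of 15 (−0.09). The clusters gave similar medians, with −0.26 for Hist1, −0.18 for Hist2, −0.23 for Hist3 and −0.20 for the single gene of Hist4. Probes before the stem-loop had a median difference of −0.21, those that end at it −0.36 and those mostly past it −0.18. The plot of differences by type shows how the H2B and H3 genes lie below 0 together while H2A genes spread to both sides.

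**Figure D1:**
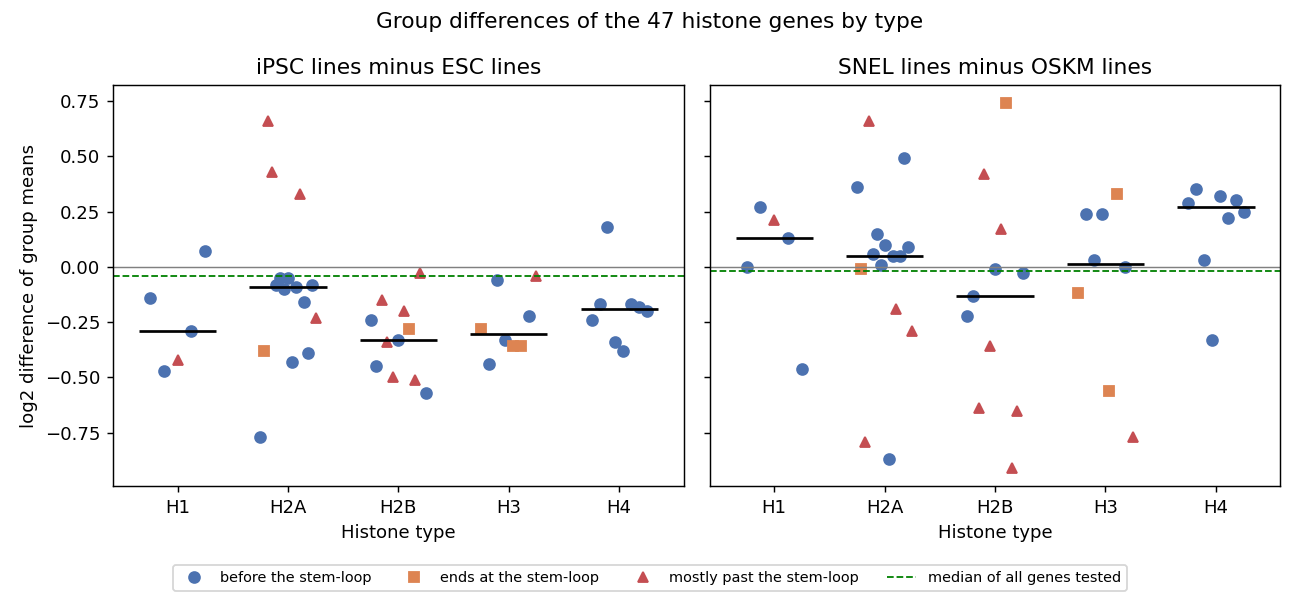
Log2 difference of group means (y axis) for each of the 47 histone genes by histone type (x axis), iPSC minus ESC lines on the left and SNEL minus OSKM lines on the right. Points are genes, with the shape giving the probe position, black bars are type medians and the dashed line is the median of all genes tested; on the left 42 of 47 points lie below 0, and on the right the 12 probes past the stem-loop have a median of −0.33.

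Hist1h2aa, an H2A gene known from the testis, had the smallest p of the members in this comparison. Its level had a lowest value of −3.67, a median of −3.06 and a highest value of −2.55 over the iPSC lines, against −2.40, −2.37 and −2.28 in the ESC lines. Every iPSC line thus lay below every ESC line, with a difference of −0.77 ± 0.23 (SE; limma, adjusted p = 0.265). The arrays of slide 3, however, stood apart for this probe. The 3 ESC arrays of slide 3 read −1.91, −1.95 and −1.76 and the 1 iPSC array there −2.51, against −2.89, −2.80 and −2.79 for the ESC arrays of the other slides, which iPSC arrays overlapped. With slide as a block the difference was −0.37, and within slides 1 and 2 it was −0.32 and −0.33. The slide and the group cannot be fully told apart for this gene, since 3 of the 4 arrays of slide 3 are ESC arrays.

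The other members with an unadjusted p under 0.05 were Hist1h2ab (H2A, −0.38 ± 0.15), Hist1h2bb (H2B, −0.45 ± 0.20) and Hist1h3c (H3, −0.44 ± 0.19), with limma's adjusted p of 0.434, 0.509 and 0.509. Hist1h3c had a lowest level of 0.90, a median of 1.27 and a highest of 1.84 in iPSC lines, against 1.57, 1.86 and 1.75 in the ESC lines. The line means overlapped through Oct4-GFP SNEL#1. As for Hist1h2aa, the arrays of slide 3 read higher, with 1.99 for Oct4-GFP SNEL#1, against 1.72, 2.14 and 2.11 for the ESC lines. The ESC arrays of the other slides read 1.43, 1.57 and 1.40, and single iPSC arrays there reached 1.70 (Oct4-GFP SNEL#1) and 1.60 (Nanog-GFP OSKM#2). With slide as a block the difference of Hist1h3c was −0.24, and within slides 1 and 2 it was −0.19 and −0.26. Among the linker histones, Hist1h1b had the lowest difference, at −0.47 ± 0.26 (adjusted p = 0.667), and the testis linker histone Hist1h1t the highest, at 0.07 ± 0.28 (adjusted p = 0.985).

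Of the H2A genes read past the stem-loop, Hist2h2aa1 had a positive difference of 0.33. Hist1h2ac and Hist1h2ae also had positive values, but these rest on signals close to background. Hist1h2ac was above it on 7 of 14 iPSC arrays and on 1 of 6 ESC arrays, so that it passed the filter through the iPSC arrays, and Hist1h2ae on 10 of 14 and on 6 of 6.

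By grade, the median difference from ESC lines was −0.13 in poor, −0.29 in good and −0.26 in high lines, with 37, 35 and 41 of 47 genes lower. Single lines moved these medians. That of poor lines was −0.36 without Nanog-GFP OSKM#2 and −0.06 without KH2_OSKM, that of good lines 0 without BC_2 OSKM, and that of high lines −0.14 without Nanog-GFP SNEL#2. Over all genes these medians were −0.03, −0.06 and −0.07, and 53.8%, 57.9% and 59.7% were lower. By limma 0 histone genes passed in each (lowest adjusted p 0.430, 0.788 and 0.831, with 2, 1 and 1 at an unadjusted p under 0.05), as 0 of all genes did, of which 2648, 1698 and 1601 had an unadjusted p under 0.05. For 6 histone genes every poor line lay below every ESC line (10.7% of all genes), for 10 every good line did (14.3%) and for 15 every high line (15.5%). The 15 comprised 8 H2A, 5 H4 and 2 H1 genes. Of the genes with nearly alike probes, Hist1h2ah, Hist1h2an, Hist2h2aa2, Hist1h4c and Hist1h4j were among them. These comparisons share their ESC lines.

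Hist1h2ab, an H2A gene read at the stem-loop, had levels of 6.09 and 6.43 in the high lines, against 6.84, 6.63 and 6.98 in the ESC lines, a difference of −0.56 ± 0.20 (SE; limma, adjusted p = 0.831). Hist3h2a, an H2A gene of the small Hist3 cluster, had 0.10 and 0.11 in the good lines, against 0.46, 0.69 and 0.89 in the ESC lines, a difference of −0.57 ± 0.24 (adjusted p = 0.788). Hist1h4h, an H4 gene, differed in the other direction, with −2.31 and −2.59 in the high lines, against −2.72, −2.85 and −2.84 in the ESC lines (0.36 ± 0.16, adjusted p = 0.846). The lines of the groups compared did not overlap for these 3 genes, and none of the differences passed the test.

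Good and high lines against poor lines gave a median difference of −0.06 over the 47 genes, with 28 lower (55.8% of all genes). By limma 0 were called (lowest adjusted p = 0.925), as 0 of all genes were. At an unadjusted p under 0.05 stood 3 of the 47 and 1402 of all 27161 genes. The median of −0.06 had no settled sign, since it ran from −0.17 without KH2_OSKM to 0.05 without Nanog-GFP SNEL#2. Of 17 markers of fibroblasts or feeder cells 13 were higher in good and high lines (median 0.89), and of 15 genes of pluripotent cells 13 (median 0.19), and their part in the histone values was not tested. By probe position the values were less even. Of the 12 probes past the stem-loop, 11 were lower in good and high lines, with a median of −0.50, while 13 of 30 probes before the stem-loop were lower, with a median of 0.03. The difference between the positions was not tested. Of the 12, Hist1h2ac, Hist1h2ae, Hist1h2bg, Hist2h2be and Hist2h3c2-ps were not above background on all arrays. The share of probes above background was 50.2% to 61.2% in good and high lines and 62.6% to 67.8% in poor lines. The part of this in the lower values past the stem-loop was not tested. Hist2h2be, an H2B gene, had levels of −4.44, −5.45, −4.46 and −5.25 in the good and high lines, against −3.82, −4.03 and −4.29 in the poor lines. The groups did not overlap, with a difference of −0.86 ± 0.34 (SE; limma, adjusted p = 0.925), although only 5 of 8 good and high arrays were above background for it and all 6 poor arrays were. For 2 members every good and high line lay below every poor line, as for 3.38% of all genes.

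SNEL lines differed from OSKM lines by a median of 0.05, with 28 of 47 genes higher, where 52% of all genes were lower. By limma 0 were called (lowest adjusted p = 0.513), where 2 of all genes were called (0.00736%). At an unadjusted p under 0.05 stood 4 of the 47 and 2552 of all 27161 genes. The median of 0.05 had no settled sign either, as it ran from −0.04 without Nanog-GFP SNEL#3 to 0.16 without Nanog-GFP SNEL#2. The markers of fibroblasts or feeder cells were higher in SNEL lines for 14 of 17 (median 1.00) and the genes of pluripotent cells for 13 of 15 (median 0.24), with 0 called, and their part was not tested. By type, 7 of 8 H4 genes were higher in SNEL lines (median 0.27) and 8 of 11 H2B genes were lower (median −0.13). The 12 probes past the stem-loop had a median of −0.33 and the 30 before it of 0.08. SNEL lines had the lowest shares of probes above background (50.2%, 57.3% and 58.8%, against 61.2% to 67.8% in OSKM lines), and the part of this in the lower values of dim probes was not tested. For 3 members every SNEL line lay below every OSKM line (4.13% of all genes), and for 1, Hist1h2be, above (3.55%). Hist3h2ba, an H2B gene read past the stem-loop, had levels of −1.79, −1.48 and −0.96 in Nanog-GFP SNEL#3, Nanog-GFP SNEL#2 and Oct4-GFP SNEL#1, against −0.87, −0.66, −0.63 and −0.89 in the OSKM lines. The difference was −0.65 ± 0.29 (SE; limma, adjusted p = 0.531), and this probe was above background on all 20 arrays. The ESC lines, at −0.93, −0.45 and −1.64, overlapped both. The other 2, Hist2h2be and Hist1h2al, differed by −0.91 and −0.87, but only 3 and 2 of 6 SNEL arrays were above background for them, against 8 of 8 OSKM arrays.

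SNEL lines against ESC lines gave a median of −0.19 with 39 of 47 genes lower (57.4% of all genes) and 0 called (limma, lowest adjusted p = 0.464, 3 at an unadjusted p under 0.05), as 0 of all genes were, with 2184 at an unadjusted p under 0.05. Without Nanog-GFP SNEL#2 the median was −0.05.

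The 10 lines were also compared with each other. The spread in this test is that between the 2 arrays of a line, which may be repeats of 1 RNA, so that the p-values may measure technical spread alone and do not bear on conditions. In this moderated F test 32 of 47 histone genes passed, where 61.5% of all genes did, so the share among histone genes is near that of all genes. By type, all 8 H3 genes passed (Hist1h3c did not without KH2_OSKM, with an adjusted p of 0.0582), 10 of 11 H2B, 7 of 8 H4 and 4 of 5 H1, but 3 of 15 H2A genes. The 3 were Hist1h2ab, Hist2h2aa1 and Hist3h2a, whose probes end at the stem-loop or lie past it. The H2A probes of Hist1h2ac and Hist1h2ae also lie past it and did not pass (F test, adjusted p = 0.0784 and 0.378). By position 5 of 5 probes that end at the stem-loop passed, 10 of 12 past it and 17 of 30 before it. The median SD between lines was 0.26 for H2A, 0.30 for H4, 0.44 for H1, 0.47 for H3 and 0.50 for H2B genes.

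**Figure D2:**
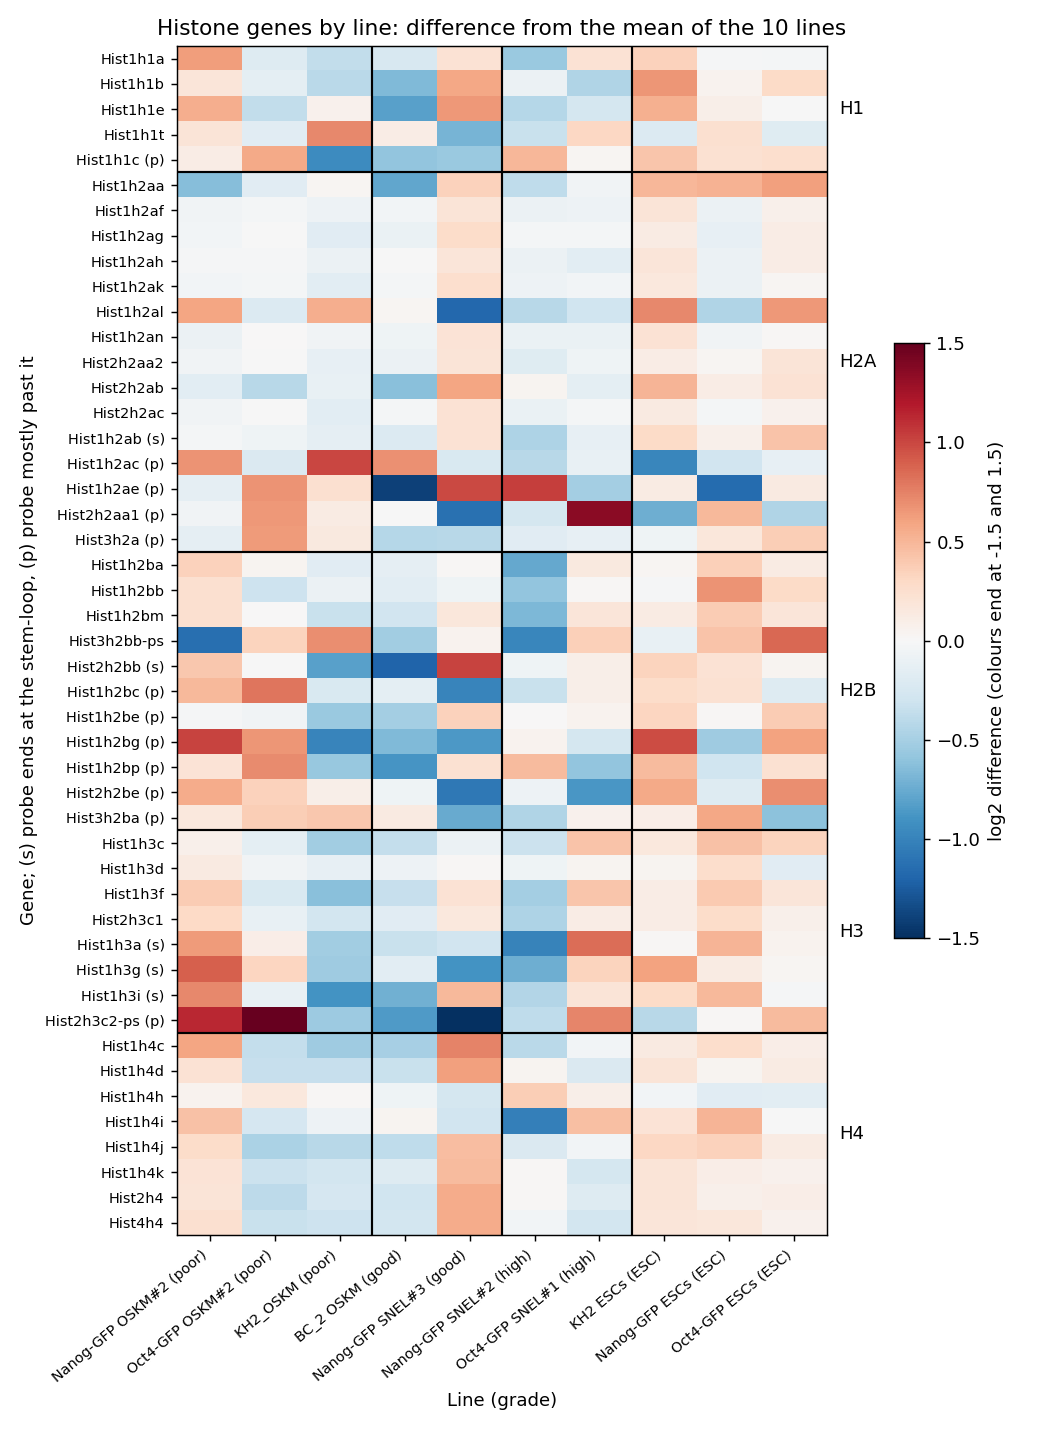
Difference of each histone gene (rows, grouped by type) from its own mean over the 10 lines (columns, with their grades), on the log2 scale with colours ending at −1.5 and 1.5. The marks (s) and (p) give probes that end at the stem-loop or lie mostly past it; the H4 genes are highest in Nanog-GFP SNEL#3 in 6 of 8 rows, and the 6 nearly alike H2A probes are nearly white throughout.

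Hist1h1c, the gene of the linker histone H1.2, had the largest F of the members (limma F = 114, adjusted p = 2.15e-08). Its levels were −0.93 in Nanog-GFP OSKM#2, −0.48 in Oct4-GFP OSKM#2, −1.99 in KH2_OSKM, −1.64 in BC_2 OSKM, −1.60 in Nanog-GFP SNEL#3, −0.55 in Nanog-GFP SNEL#2 and −1.01 in Oct4-GFP SNEL#1, against −0.63, −0.82 and −0.79 in the ESC lines. The ESC lines lay close together, and 3 iPSC lines lay more than 0.5 below all of them, in 2 grades and with both factor sets. Its probe lies past the stem-loop.

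Hist1h1b, the gene of H1.5 read before the stem-loop, followed another order of lines (F = 42.3, limma adjusted p = 1.59e-06). Its levels were 5.23, 4.90 and 4.64 in the poor lines, 4.38 and 5.62 in the good lines and 4.95 and 4.59 in the high lines, against 5.70, 5.09 and 5.33 in the ESC lines. Nanog-GFP SNEL#3, low for Hist1h1c, was the highest iPSC line, and the other good line, BC_2 OSKM, was the lowest of all 10. Hist1h1e (H1.4) was likewise highest in Nanog-GFP SNEL#3, at 3.00, and lowest in BC_2 OSKM, at 1.54 (adjusted p = 0.000114).

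Of the H3 genes, Hist1h3a had the largest F (90.7, limma adjusted p = 5.66e-08). Its levels were 1.24, 0.70 and 0.07 in the poor lines, 0.26 and 0.31 in the good lines and −0.41 and 1.43 in the high lines, against 0.61, 1.11 and 0.65 in the ESC lines. The 2 high lines were thus the lowest and the highest of all 10, and the ESC lines lay between them. Hist1h3g, also read at the stem-loop, was highest in Nanog-GFP OSKM#2, at 1.77, and lowest in Nanog-GFP SNEL#3, at −0.03 (adjusted p = 2.22e-07).

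Of the H4 genes, Hist1h4c had the largest F (44.5, limma adjusted p = 1.26e-06), with levels of 1.42, 0.47 and 0.30 in the poor lines, 0.33 and 1.57 in the good lines and 0.42 and 0.79 in the high lines, against 0.96, 1.09 and 0.93 in the ESC lines. Nanog-GFP SNEL#3 and Nanog-GFP OSKM#2 lay above the ESC lines and the other 5 iPSC lines below them. The gene Hist4h4, alone on chromosome 6, was highest in Nanog-GFP SNEL#3, at 5.22, and lowest in Oct4-GFP OSKM#2, at 4.33 (adjusted p = 0.00753). Its probe covers another window than the nearly alike H4 probes. Whether it also reads other H4 genes was not checked. Hist1h4h was the one H4 gene that did not pass (F = 0.524, adjusted p = 0.87).

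**Figure D3:**
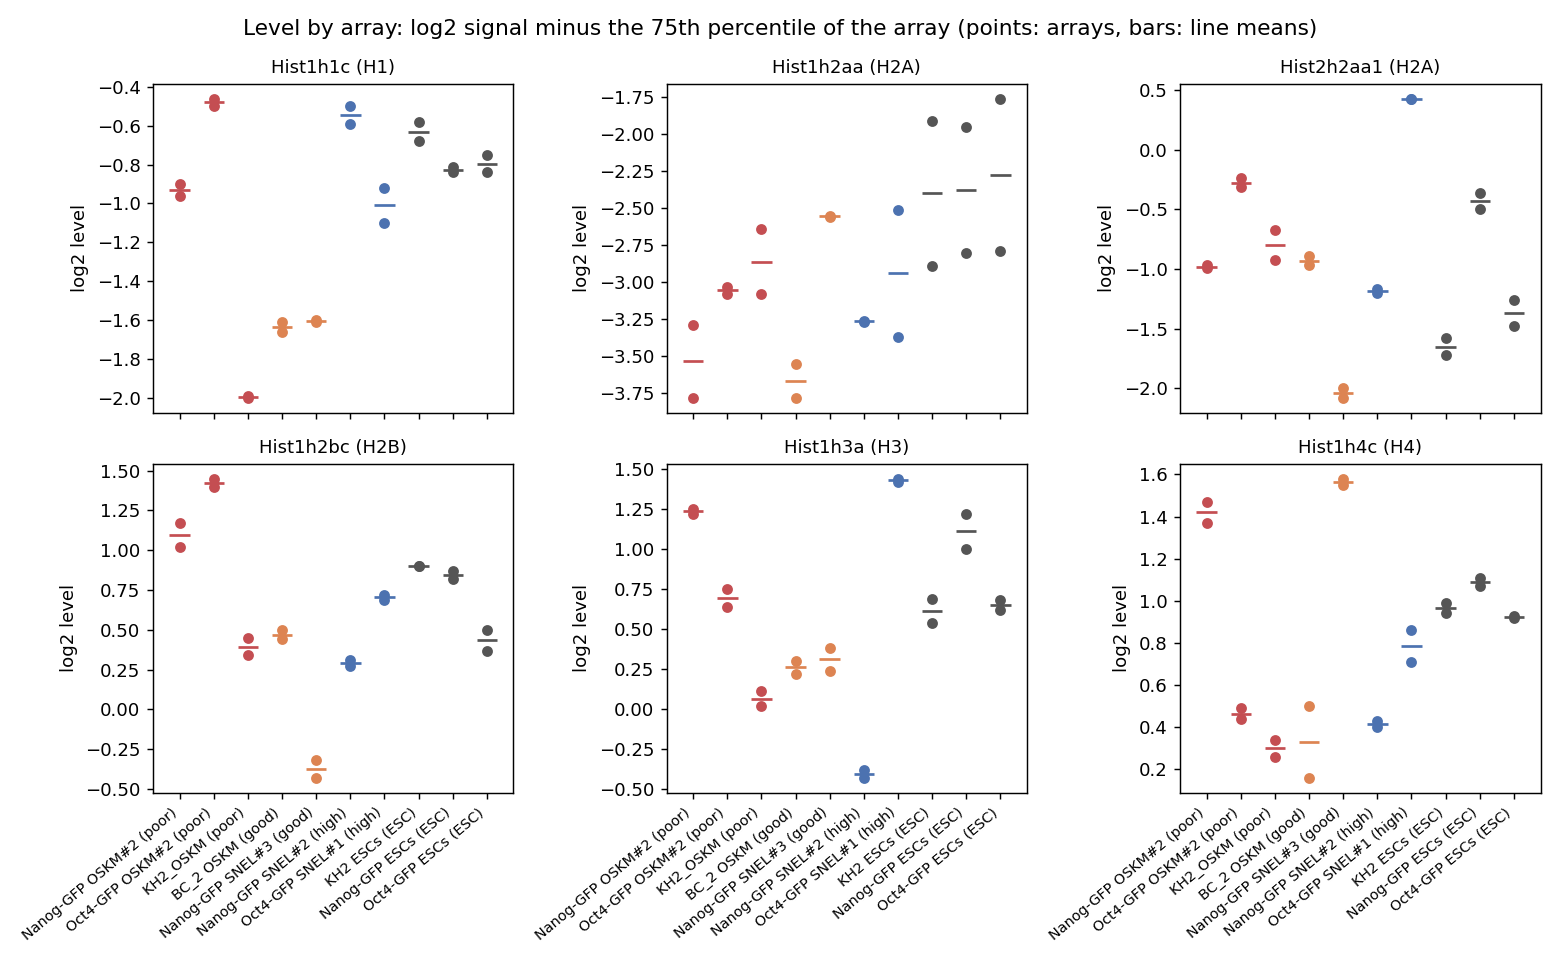
Level (log2 signal minus the 75th percentile of the array) of 6 histone genes on each of the 20 arrays, by line from poor, good and high iPSC lines to ESC lines. Points are single arrays and bars line means; the 2 arrays of a line lie close together for the 5 genes called between lines, while for Hist1h2aa each ESC line has 1 array near −1.9 and 1 near −2.8.

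In some lines the direction differed with the position of the probe; this was not tested. Nanog-GFP SNEL#3 had the highest level of all 10 lines for 14 of 47 histone genes (29.8%, against 12.6% of all genes tested), among them 6 of 8 H4 genes and 13 of 30 probes before the stem-loop. Of the 14, Hist1h2af, Hist1h2ag, Hist1h2ak, Hist2h2aa2, Hist1h4c, Hist1h4d and Hist1h4j have nearly alike probes and are not independent. The line was also lowest for 9 of 47 (19.1%, against 13.5% of all genes). In the same line 5 of 12 probes past the stem-loop were the lowest of all lines, with a median of −0.66 from the mean of the 10 lines. Oct4-GFP OSKM#2 showed the opposite. It was lowest for 5 of 8 H4 genes, of which Hist1h4d and Hist1h4j have nearly alike probes. It was highest for 5 of 12 probes past the stem-loop, with a median of 0.64, while its probes before the stem-loop had a median of −0.16. Of all genes, 8.08% were lowest and 7.52% highest in Oct4-GFP OSKM#2. KH2_OSKM, BC_2 OSKM and Nanog-GFP SNEL#2 had negative medians for each of the 3 probe positions. The 3 ESC lines had positive ones for each, and so did the poor line Nanog-GFP OSKM#2 (0.19 before the stem-loop, 0.64 at it and 0.18 past it).

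Nanog-GFP SNEL#3 also had the lowest share of probes above background (50.2%), and the part of this in its low values past the stem-loop was not tested. Hist1h2bc and Hist2h2aa1 were lowest in it and above background on all 20 arrays. Hist1h2bc, an H2B gene, had a level of −0.37 there, against 0.29 to 1.42 in the other iPSC lines and 0.90, 0.85 and 0.43 in the ESC lines (F = 97.8, limma adjusted p = 4.13e-08). Hist2h3c2-ps, an H3 gene read past the stem-loop, had the widest spread of the members, with an SD between lines of 0.98. Its level was −5.17 in Nanog-GFP SNEL#3 and −1.91 in Oct4-GFP OSKM#2, against −3.87, −3.44 and −2.98 in the ESC lines (F = 40.3, adjusted p = 1.96e-06), and 18 of 20 arrays were above background.

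The nearly alike H2A probes, Hist1h2af among them, had SDs between lines of 0.11 to 0.14. Hist1h2af ran from 9.10 to 9.39 over the 7 iPSC lines, against 9.38, 9.10 and 9.27 in the ESC lines (F = 1.25, adjusted p = 0.459). The other 5 nearly alike H2A probes did not pass either, with SDs between the 2 arrays of a line of 0.12 to 0.20. Hist2h2ac, an H2A gene whose probe is not among these, had an adjusted p of 0.446. A p that misses the threshold does not show that these genes have equal levels in the lines.

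**Figure D4:**
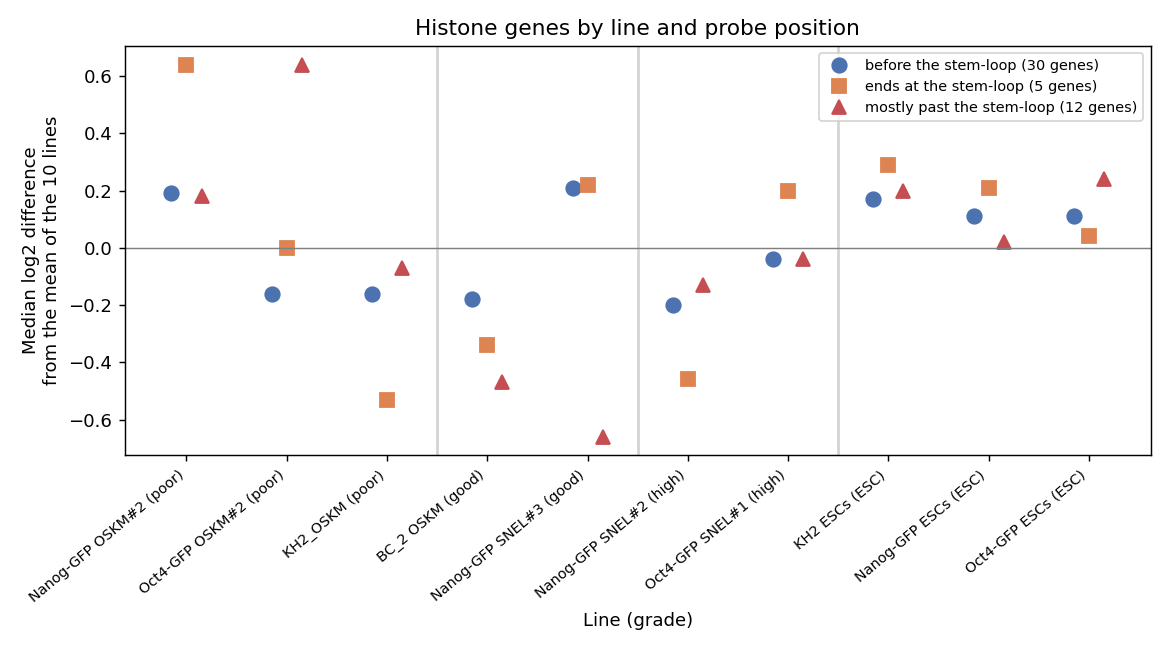
Median log2 difference from the mean of the 10 lines (y axis) for histone genes by probe position, in each line (x axis, with its grade). Circles are 30 genes read before the stem-loop, squares 5 read at it and triangles 12 read mostly past it; the triangle is at −0.66 in Nanog-GFP SNEL#3 and at 0.64 in Oct4-GFP OSKM#2, where the circles are at 0.21 and −0.16.

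The pair Hist2h2aa1 and Hist2h2aa2 shows this split at one place in the genome. Their probes, the Hist2h2aa windows printed above, lie on the same strand of chromosome 3 with 52 bases between them. The probe named Hist2h2aa2 covers the coding end and ranged over 0.38 between lines (limma adjusted p = 0.122). The probe named Hist2h2aa1, past the stem-loop, ranged over 2.47 (adjusted p = 2.56e-08). Its levels were −0.98, −0.27 and −0.80 in the poor lines, −0.93 and −2.04 in the good lines and −1.18 and 0.43 in the high lines, against −1.65, −0.43 and −1.37 in the ESC lines. Nanog-GFP SNEL#3 was the lowest of all lines for the probe past the stem-loop, and KH2 ESCs came next. The coding probe is one of the nearly alike ones, so that its signal may also hold other H2A genes. The coding probe was also far brighter, at 8.80 to 9.18 over the lines, against −2.04 to 0.43 for the probe past the stem-loop. The part of this brightness in its narrow range was not tested.

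For 4 genes 2 probes passed the filter. For Hist1h2ak SNEL minus OSKM was 0.10 for the brighter probe and −0.07 for the other, and iPSC minus ESC −0.05 and −0.31. For Hist1h4k both were highest in Nanog-GFP SNEL#3. For Hist1h4i the probe at the start of the transcript was lowest in Nanog-GFP SNEL#2 and the one 483 bases into it lowest in Nanog-GFP SNEL#3. For Hist2h4 SNEL minus OSKM was 0.30 for the brighter probe and −0.56 for the other, so that for Hist1h2ak and Hist2h4 this direction depends on the probe.

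Lines that share an origin can be set side by side. Nanog-GFP SNEL#2 was lower than Nanog-GFP OSKM#2 for 38 of 47 histone genes, with a median of −0.41, where 43.8% of all genes were lower. Nanog-GFP SNEL#3, of the same origin and factors as SNEL#2, was higher than it for 33 of 47, with a median of 0.35, and for 27 of 30 probes before the stem-loop. Of all genes 50.1% were lower in that pair. Against the ESC line of the same origin the iPSC lines did not move alike. KH2_OSKM was lower than KH2 ESCs for 39 of 47, with a median of −0.44 (50.6% of all genes), and so were 30 of 38 genes of S phase (median −0.19) and 17 of 20 histone chaperones (median −0.30). Nanog-GFP SNEL#2 was lower than Nanog-GFP ESCs for 36 of 47 (median −0.32), but Nanog-GFP SNEL#3 for 23 (median 0.00) and Nanog-GFP OSKM#2 for 21 (median 0.05). Of all genes 48.9%, 49.7% and 51.1% were lower in these pairs, in that order. Against Oct4-GFP ESCs, Oct4-GFP SNEL#1 was lower for 28 of 47 (median −0.14) and Oct4-GFP OSKM#2 for 33 (median −0.13). Of all genes 61.5% (median −0.15) and 54.9% (median −0.05) were lower there. The histone values of Oct4-GFP SNEL#1 were thus near those of all genes. In these other pairs with an ESC line, the S phase and chaperone medians did not always follow the histone genes. They were 0.17 and 0.23 for Nanog-GFP SNEL#2, 0.22 and 0.37 for Nanog-GFP SNEL#3 and 0.11 and 0.15 for Nanog-GFP OSKM#2. For Oct4-GFP SNEL#1 they were −0.16 and −0.29, and for Oct4-GFP OSKM#2 0.04 and −0.01. The part of these genes in the histone values was not tested. Oct4-GFP SNEL#1 against Oct4-GFP OSKM#2 had a median of 0.06, but 9 of 12 probes past the stem-loop were lower, with a median of −0.74. Of all genes 56.1% were lower between these lines, with a median of −0.07. Each is 1 line against 1 line, and no test was made.

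Genes that make, cut or chaperone histone mRNA and protein were lower in iPSC lines in most cases, as were 57.6% of all genes. Their medians were near the −0.04 of all genes, with no call. Of 24 genes tested for histone gene expression and 3′ end processing, 0 were called in any of 7 comparisons, and 17 were lower in iPSC lines, with a median of −0.06. For high minus ESC lines, 19 of the 24 were negative (median −0.16), where 59.7% of all genes were (median −0.07). Slbp, which binds the stem-loop, averaged 2.87 ± 0.20 in iPSC and 2.76 ± 0.16 in ESC lines (SD, n = 7 and 3; limma adjusted p = 0.930). Casp8ap2 and Lsm11, which act in histone gene transcription and in the cutting of the mRNA, differed by −0.10 and −0.11 (adjusted p = 0.937 and 0.969). Npat, the activator of these genes, had no probe that was tested. Of the 20 histone chaperones 14 were lower in iPSC lines (median −0.03), and 15 were higher in SNEL than in OSKM lines (median 0.14), with 0 calls.

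Of 38 genes of DNA replication and S phase 0 were called, with a median of −0.01. Pcna, the sliding clamp of DNA polymerase, differed by −0.13 ± 0.11, Mcm2 of the replicative helicase by −0.11 ± 0.13, and Rrm2 of ribonucleotide reductase by 0.00 ± 0.10. By line, the S phase median ran from −0.12 in KH2_OSKM and Oct4-GFP SNEL#1 to 0.10 in Nanog-GFP SNEL#3. The 23 genes of G2 and mitosis had a median of −0.01. The 13 replication-independent histone variants had a median of −0.08 and 0 calls, with −0.05 for H2afx, −0.08 for H2afz, −0.12 for H3f3a, −0.07 for H3f3b and −0.37 for the linker variant H1f0.

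The cell type of the label was checked on 15 genes of pluripotent cells, all above background on all 20 arrays, with a median of 0.00 for iPSC minus ESC. Of 17 markers of fibroblasts or feeder cells, 14 were lower in iPSC lines, with a median of −1.48, and 0 were called. Their summed level ran from 7.38 to 8.05 (log2) in iPSC lines and from 7.68 to 7.81 in ESC lines, and 6 of the 17 were above background on all arrays. Their part in the lower histone levels of iPSC lines was not tested.

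As all H2B and all H3 genes had the same direction between iPSC and ESC lines, the windows at their gene starts were read (RefSeq, GRCm38.p6, 250 bases before to 50 after the start). That direction was not settled for Hist3h2ba (−0.03) and Hist2h3c2-ps (−0.04), which changed sign under some settings. Windows were found for 40 genes, 41 windows in all. The H2B gene with the smallest p between iPSC and ESC lines and the H1 gene with the lowest difference are shown, with each motif searched in capitals.
Hist1h2bb (chr13:23746484-23746783, + strand): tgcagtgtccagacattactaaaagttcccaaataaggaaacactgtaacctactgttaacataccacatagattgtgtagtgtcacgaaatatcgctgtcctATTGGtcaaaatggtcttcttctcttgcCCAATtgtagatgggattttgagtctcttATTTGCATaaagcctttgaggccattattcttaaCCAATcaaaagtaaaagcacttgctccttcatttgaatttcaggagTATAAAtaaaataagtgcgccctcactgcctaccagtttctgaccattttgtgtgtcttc
Hist1h1b (chr13:21780576-21780875, − strand): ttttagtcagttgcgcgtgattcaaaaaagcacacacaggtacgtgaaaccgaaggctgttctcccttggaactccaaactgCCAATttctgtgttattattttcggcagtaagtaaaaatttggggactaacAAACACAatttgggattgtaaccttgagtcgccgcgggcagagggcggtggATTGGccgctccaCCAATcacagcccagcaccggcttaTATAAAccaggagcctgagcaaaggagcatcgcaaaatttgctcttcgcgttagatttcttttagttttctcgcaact
The motifs were searched on both strands and do not overlap each other in these windows. The octamer ATTTGCAT, known from H2B promoters, was in 6 of 9 H2B and 7 of 14 H2A windows and in 0 of the 18 windows of H1, H3 and H4 genes, against 1.7% of 32851 windows of all genes. The letters AAACACA, known from H1 promoters, were in 4 of 5 H1 windows, against 7.2% of all. CCAAT was in all windows of H1, H2A, H2B and H3 genes but in 2 of 7 of H4, against 37.4% of all. TATAAA was in 24 of the 41, against 13.6%. H2A and H2B genes often lie head to head, so that 1 motif can stand in the windows of both. A match is a description of the letters and says nothing of binding in these cells.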

How the data were processed

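Total RNA of 10 lines was hybridised to 20 Agilent arrays in 1 colour (Cy3) on 3 slides. Feature Extraction 10.1.1.1 gave each spot of array design 028005 an intensity with background subtracted and detrended, per the file headers, which use mm9 coordinates. The authors' deposited value table holds log2 values whose column medians run from 6.2663 to 6.2801. Its ranks follow the scanner signal (lowest Spearman correlation 0.9984), and its normalization is not stated in the sources used here. The submitters' processing notes name limma. How the RNA was primed for labelling is not given in the sources used here.

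Of 62976 spots 59305 were not controls. Values with an outlier flag were dropped (563 probes), repeated spots were averaged and 55681 probes were left, with 0 saturated. From each log2 intensity the array's 75th percentile was subtracted (513 to 914 before the log). Between 48.9% and 77.2% of probes per array were above background, and the 2 arrays of a line correlated at 0.952 to 0.988. Precision is limited by how many arrays there are. Of the histone probes 50 matched a current symbol through RefSeq accessions.

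Limma 3.58.1 in R 4.3.3 (with data.table, version 1.17.8) fitted line means in 3 models (iPSC and ESC; poor, good, high and ESC; SNEL, OSKM and ESC), which gave 7 comparisons, and the 20 arrays with 1 mean per line for the F test. P-values were adjusted over 27161 genes, with a threshold of 0.05. The test was checked on simulated data. Alternatives were quantile normalization, normexp with an offset of 50, the authors' table, other filters, the mean of a gene's probes, slide as a block, slides 1 and 2 alone, the array number as a replicate block, and leaving out each line.

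The histone genes and the gene lists were chosen with earlier results of these data known. Genes were named by a rule: members called, the 3 with the smallest p per comparison and the 8 in the F test, the highest and lowest difference of iPSC and ESC lines per type, and all H1 genes, with 13 fixed partners and variants. Hist1h2ae, Hist1h2be, Hist1h3i, Hist2h2ac, Hist2h2bb, Hist4h4 and the genes with alike or paired probes were added after their values were seen. Where the labels number 2 arrays per line, the deviations of arrays with the same number correlated above 0.1 in 29 of 45 pairs of lines (−0.1 to 0.51, median 0.17). This points to some shared effect, but not every pair passed 0.1, so the number was kept as an alternative block only.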

Additional observations from a re-analysis of the deposited data

Results flagged for a closer look

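Within the 4 OSKM lines, Nanog-GFP OSKM#2 stood apart from the others for 3 named genes. It had a level of 2.78 for Hist1h1a, where the next line had 1.95, of 1.42 for Hist1h4c, where the next had 0.47, and of 2.08 for Hist1h4j, where the next had 1.42. The last 2 have nearly alike probes. These came from 48 checks (23 named genes and the median of the histone genes, over the 7 iPSC and the 4 OSKM lines), and chance gives about 1 in 20.

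SNEL minus OSKM had opposite directions in lines of Nanog-GFP and of Oct4-GFP origin for 6 of 23 named genes, with every array of one factor set on one side. The Nanog-GFP values come from 2 SNEL lines and 1 OSKM line, the Oct4-GFP values from 1 line each, and the difference was not tested. No such share was taken over all genes. Some of the 23 were named for a small p between lines or factor sets. Whether 6 of 23 is many or few can therefore not be judged. Hist1h3a had −1.28 in Nanog-GFP and 0.73 in Oct4-GFP lines, and Hist2h2aa1 −0.63 and 0.71. For the linker histones, Hist1h1a had −0.80 and 0.42, and Hist1h1t −0.71 and 0.49. Hist1h2bb had −0.56 and 0.34, and Hist1h3c −0.28 and 0.57.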

How the results depend on the processing

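In all 7 comparisons 0 histone genes were called under each alternative that gives a test, the replicate block among them, and the F test between lines called 28 to 33 genes when 1 line was left out and 29 to 37 under the other alternatives (33 with the array number as a replicate block), against 32. Of all genes, limma called 119 for iPSC minus ESC, 338 for SNEL minus OSKM and 47 for SNEL minus ESC without Oct4-GFP SNEL#1. No other line left out gave more than 10 in a comparison. The replicate block gave 25 for poor minus ESC and 47 for SNEL minus OSKM. With line as a random block on 20 arrays, an alternative chosen after seeing the data, limma called 7 of all genes for iPSC minus ESC and 87 for SNEL minus OSKM, but 0 histone genes. The number of histone genes lower in iPSC lines stayed between 33 and 42, and 33 is of the 38 genes left without nearly alike probes. The median of iPSC minus ESC ran from −0.29 to −0.16. The median of poor minus ESC was −0.36 without Nanog-GFP OSKM#2 (−0.36 to −0.06 over lines left out), and that of good minus ESC was 0 without BC_2 OSKM (−0.42 to 0). Over lines left out, the median ran from −0.33 to −0.14 for high minus ESC, from −0.26 to −0.05 for SNEL minus ESC, from −0.17 to 0.05 for good and high minus poor and from −0.04 to 0.16 for SNEL minus OSKM. Of the 23 named genes, 9 had a difference of iPSC minus ESC that changed sign under some setting. Leaving out 1 line, Hist1h1t ran from −0.05 to 0.21, Hist1h2bc from −0.30 to 0.004, Hist2h3c2-ps from −0.30 to 0.25 and Hist3h2ba from −0.35 to 0.24. With normexp, Hist2h3c2-ps had 0.18 and Hist3h2ba 0.01, and in the authors' table Hist2h3c2-ps had 0.04. Within slide 1, Hist2h3c2-ps had 0.38, Hist3h2a 0.12 and Hist3h2bb-ps 1.01. Within slide 2, Hist1h2al had 0.23, Hist1h4h −0.03 and Hist2h2aa1 −0.06. The cause of these changes was not tested. In the F test, Hist1h2aa passed with slide as a block (adjusted p = 0.00266) and with the replicate block (0.0284), and Hist1h2ab and Hist1h2bb did not pass in the authors' table (0.081 and 0.0515). Hist1h2ab also did not pass without Nanog-GFP SNEL#2 (0.0922) nor Hist1h3c without KH2_OSKM (0.0582), while Hist1h2ac passed with normexp (0.0392) and without Oct4-GFP SNEL#1 (0.0318). Signal over background limits 8 of the 47 genes, which were not above it on all arrays.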
